A study of Mus musculus with 2 samples.

Results

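Cathepsins are the proteases of the lysosome, and cystatins are small proteins that block the cysteine type of them. The 10 genes described here are 8 cathepsins (Ctsa, Ctsb, Ctsc, Ctsd, Ctsh, Ctsl, Ctss and Ctsz) and the cystatins Cst3 and Cstb, chosen by name out of 23961 gene symbols in the files. All 10 were found, each as 1 row per file, and all 10 reached 1 FPKM or more in at least 1 library (FPKM, fragment counts scaled to transcript length and library total). The data are 1 RNA-seq library labelled Per2wt (wild-type) and 1 labelled Per2def (Per2-deficient). Both come from bone marrow sorted for haematopoietic stem cells, the source of every blood lineage, of untreated C57BL/6 mice kept under alternating light and dark. The sources used here do not give the age and number of animals, the sort markers, the hour of collection or which Per2 allele was used. The comparison asks how these genes differ in level between the genotypes. Since each genotype has a single library, nothing could be checked by replicates or tested, so each difference is between these libraries and not between the genotypes. Paired values are given with the library labelled Per2wt first and the library labelled Per2def second.

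Cathepsins are made as inactive precursors, carried to the lysosome mostly by mannose 6-phosphate receptors, and activated there at low pH by removal of a propeptide. Cysteine cathepsins (B, C, H, L, S and Z) cut with a cysteine in the active site, cathepsin D with paired aspartates, and cathepsin A with a serine. Cystatin C (Cst3) is secreted and cystatin B (Cstb) sits mainly in the cytosol, and both bind cysteine cathepsins tightly without blocking the aspartic or serine types. In blood cells, cathepsin C activates the serine proteases of neutrophil granules, and cathepsin S trims the invariant chain from MHC class II molecules in antigen-presenting cells. Many lysosomal genes carry the letters GTCACGTG near their start, the site of the lysosomal regulator TFEB. Its core, CACGTG, is also the E-box that the circadian activators CLOCK and BMAL1 bind.

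Sequence near the gene starts is shown to place the lysosomal and E-box letters, and the letters of blood cell factors, on these genes. The motifs were chosen after the values were seen, and whether they sort the genes by their difference was not tested. Windows from 250 bases before to 50 after the start (RefSeq, GRCm38.p6) were matched for 7 of the 10 genes, and Ctsb, Ctsh and Cstb had none. Both strands were searched for CACGTG, for GTCACGTG (which contains the first), for GAGGAAGT, a form of the site of the myeloid factor PU.1, and for GAAANNGAA, part of the site of interferon regulatory factors. Ctsa has 2 windows, of which 1 held matches, and the other genes have 1 each. CACGTG stood in a window of Ctsa, Ctsd and Ctsl, and of 8.09% of all 27025 genes in the table. GTCACGTG stood in a window of Ctsa and Ctsd (2.55% of all genes), GAGGAAGT in that of Ctss and Ctsc (3.69%) and GAAANNGAA in that of Ctss (9.76%). Counted by window, the shares of all 32851 were 7.15%, 2.25%, 3.2% and 8.56%. Windows of Cst3 and Ctsz held none of these letters. The stretches below are on the strand of the gene, 5′ to 3′, with the match in capitals. Matches on the other strand therefore read as ACTTCCTC for GAGGAAGT.
Ctsa, chr2:164833749-164833778, plus strand: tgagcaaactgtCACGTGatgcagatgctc
Ctsa, chr2:164833766-164833795, plus strand: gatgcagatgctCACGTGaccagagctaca
Ctsd, chr7:142388055-142388077, minus strand: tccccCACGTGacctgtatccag
Ctsd, chr7:142387908-142387937, minus strand: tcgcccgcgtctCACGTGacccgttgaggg
Ctsl, chr13:64370739-64370768, minus strand: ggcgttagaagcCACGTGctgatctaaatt
Ctss, chr3:95526753-95526803, plus strand: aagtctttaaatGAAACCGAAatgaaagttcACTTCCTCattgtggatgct
Ctsc, chr7:88277922-88277953, plus strand: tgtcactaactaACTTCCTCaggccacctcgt

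In GENCODE M21 both Ctsa matches, the Ctsl match and the second Ctsd match lie in a non-coding part of an exon, and the first Ctsd match lies outside the gene. The matches of the first 4 stretches are GTCACGTG on one strand or the other, while that of Ctsl is the core alone. In Ctss the interferon regulatory factor letters begin 21 bases before the annotated start, and the PU.1 letters begin 2 bases before it and run into the first exon. The Ctsc match begins 151 bases before the start and lies outside the gene. These are matches of letters only, and binding was not measured in these libraries.

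Per2, the gene named in the genotype, was lower in the library labelled Per2wt, at 1.96 FPKM, than in the library labelled Per2def, at 6.16 FPKM. That is 3.13-fold higher where loss was labelled, so every direction here is between the libraries as labelled. Files give no read totals, and absolute depth is unknown, so no counting interval can be set. Ratios of the lowest values put the depth of Per2def at 1.24 times that of Per2wt (of 3232 genes with values between 0 and 0.5 FPKM, 255 had ratios in the most common bin, centred at 0.805 and 0.005 wide in log2 units). Of the stem and progenitor markers, Kit stood at 42.7 and 43.6 FPKM and Cd34 at 90.5 and 83.9 FPKM. Among the 10 of that list at 1 FPKM or more, 7 fell and 3 rose from Per2wt to Per2def. Scaling by the median of ratios gave 8 and 2. Of all genes at that level, 62.0% rose (51.0% with that scaling). Hlf, at 20.3 and 15.8 FPKM, and Gata2, at 22.5 and 18.6 FPKM, differed most among these 10. Slamf1 (0.245 and 0.522 FPKM), Fgd5 and Hoxb5 were under 1 FPKM in both.

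Most of the 10 genes had nearly the same level in both libraries, as most genes did, and Ctss had the widest difference of the 10. Cst3 was the most abundant in both, followed in the same order by Ctsd, Ctsz, Cstb, Ctsa and Ctsb, and Ctsl and Ctsh came last in both. Ctsc and Ctss exchanged places 7 and 8. With 1 library each there is no spread by which to separate neighbours in that order. On the log2(FPKM + 1) scale, which understates the change of low genes, 6 of the 10 were above 0 (higher in the library labelled Per2def) and 4 below. Of the 11121 genes that reached 1 FPKM in a library, 62.0% were higher and 38.0% lower, so the split of the 10 is close to the background. When the libraries were scaled by the median of ratios, 51.0% of all genes were higher and the split of the 10 was again 6 and 4. Their median difference was 0.09, against 0.05 over all these genes. None passed 1.5-fold on that scale (a difference of 0.58), whereas 2.61% of all genes passed it upward and 1.7% downward. By plain ratio of FPKM, 7 of the 10 differed by less than 1.2-fold, as did 72.6% of all genes, and 1 by more than 1.5-fold, as did 7.78% of all genes in either direction. Those counts too are close to the background. Counts past 1.5-fold given for other lists are on the log2(FPKM + 1) scale.

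**Figure D1:**
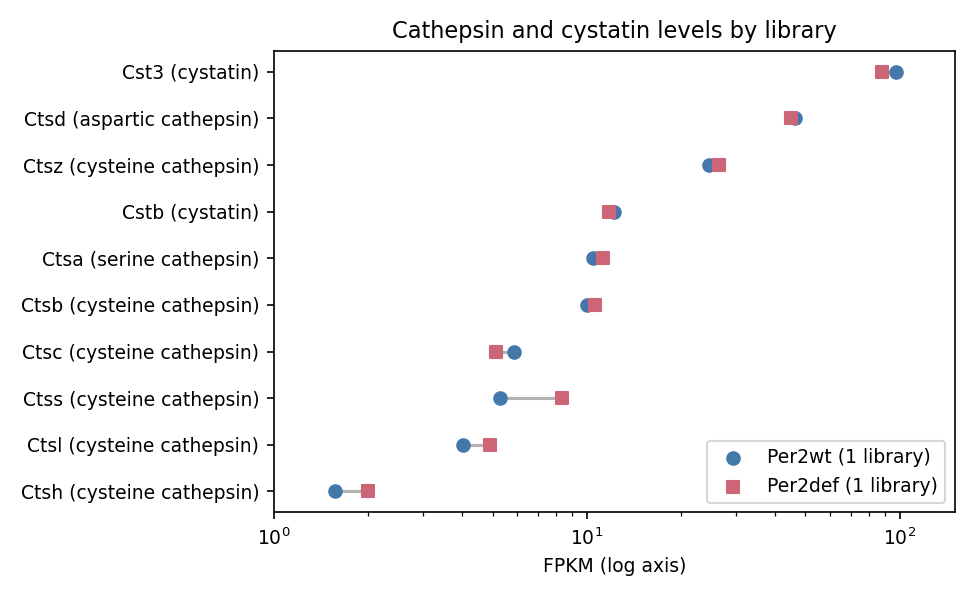
Level of each of the 10 genes in FPKM (log axis) in the library labelled Per2wt (circles) and the library labelled Per2def (squares), 1 library each, joined by a line. The line is widest for Ctss (5.29 and 8.36 FPKM), and most other pairs nearly coincide.

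Ctss showed the widest difference of the 6 cysteine cathepsins among the 10 genes. The gene (ENSMUSG00000038642.10, chromosome 3, 95526786 to 95556403, GRCm38) was at 5.29 and 8.36 FPKM. The library labelled Per2def was 1.58-fold higher, a log2 difference of 0.57, just under the 1.5-fold threshold on the scale with 1 FPKM added. Of 4845 other genes whose mean level was within 2-fold of that of Ctss, small and predicted RNAs left out, 1.49% had a wider difference in either direction. The middle 95% of those genes ran from −0.34 to 0.40. Ctss was the only one of the 10 outside the middle 95% of genes of like level. Such a range leaves some genes out by construction, and Ctss was picked here as the widest of the 10. In rank it went from 5535th to 3940th among genes other than small and predicted RNAs. Lmna, Ubald2 and Asl had the pairs of values nearest to it, at distances of 0.01, 0.02 and 0.06 on the log2 scale. With 2 libraries such a likeness is that of 2 values only.

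Ctsl and Ctsh were also higher in the library labelled Per2def, by amounts common among genes of their level. Cathepsin L (Ctsl, ENSMUSG00000021477.9, chromosome 13, 64359337 to 64370890), a broad endopeptidase of the lysosome, was at 4.02 and 4.92 FPKM. This is 1.22-fold (log2 difference 0.24), and 19.8% of genes of like level differed by more. Cathepsin H (Ctsh, ENSMUSG00000032359.14, chromosome 9, 90054152 to 90076089), mainly an aminopeptidase, was the lowest of the 10, at 1.56 and 2.00 FPKM. Its ratio was 1.28 and its log2 difference 0.23, a size that 28.4% of genes of like level exceeded.

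The remaining 3 cysteine cathepsins lay closer together. Cathepsin Z (Ctsz, ENSMUSG00000016256.10, chromosome 2, 174427493 to 174439039), a carboxypeptidase, was the most abundant of the type, at 24.6 and 26.5 FPKM (1.08-fold). Cathepsin B (Ctsb, ENSMUSG00000021939.8, chromosome 14, 63122462 to 63145923), which cuts both inside proteins and at their ends, was at 10.01 and 10.6 FPKM (1.06-fold). Cathepsin C (Ctsc, ENSMUSG00000030560.17, chromosome 7, 88278085 to 88310888), the dipeptidyl peptidase that activates granule proteases, was the only cysteine cathepsin of the 10 lower in the library labelled Per2def. It stood at 5.84 and 5.12 FPKM, 1.14-fold lower, with a log2 difference of −0.16 that 36.6% of genes of like level exceeded in size.

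The aspartic and serine cathepsins were level in the libraries. Cathepsin D (Ctsd, ENSMUSG00000007891.16, chromosome 7, 142375911 to 142388038), the main aspartic protease of lysosomes, was at 46.2 and 44.8 FPKM (log2 difference −0.04). Cathepsin A (Ctsa, ENSMUSG00000017760.16, chromosome 2, 164832873 to 164841032) is a carboxypeptidase that also protects beta-galactosidase and neuraminidase in a complex, and it was at 10.5 and 11.3 FPKM (0.10). Larger differences were seen in 75.4% of the genes of like level for Ctsd and in 54.6% for Ctsa. Ctsa and Ctsd are the genes whose windows held GTCACGTG.

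Both inhibitors were lower in the library labelled Per2def, Cst3 by more. Cystatin C (Cst3, ENSMUSG00000027447.6, chromosome 2, 148871722 to 148875692) was at 97.4 and 87.9 FPKM, 1.11-fold lower, with a log2 difference of −0.15. A total of 23.2% of the 406 genes of like level differed by more. It ranked 223rd and 243rd among all genes other than small and predicted RNAs, and held 44.8% of the summed FPKM of the 10 genes in Per2wt and 41.2% in Per2def. Cystatin B (Cstb, ENSMUSG00000005054.7, chromosome 10, 78425669 to 78427622) was at 12.3 and 11.8 FPKM (−0.05), and 75.5% of genes of like level differed by more.

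**Figure D2:**
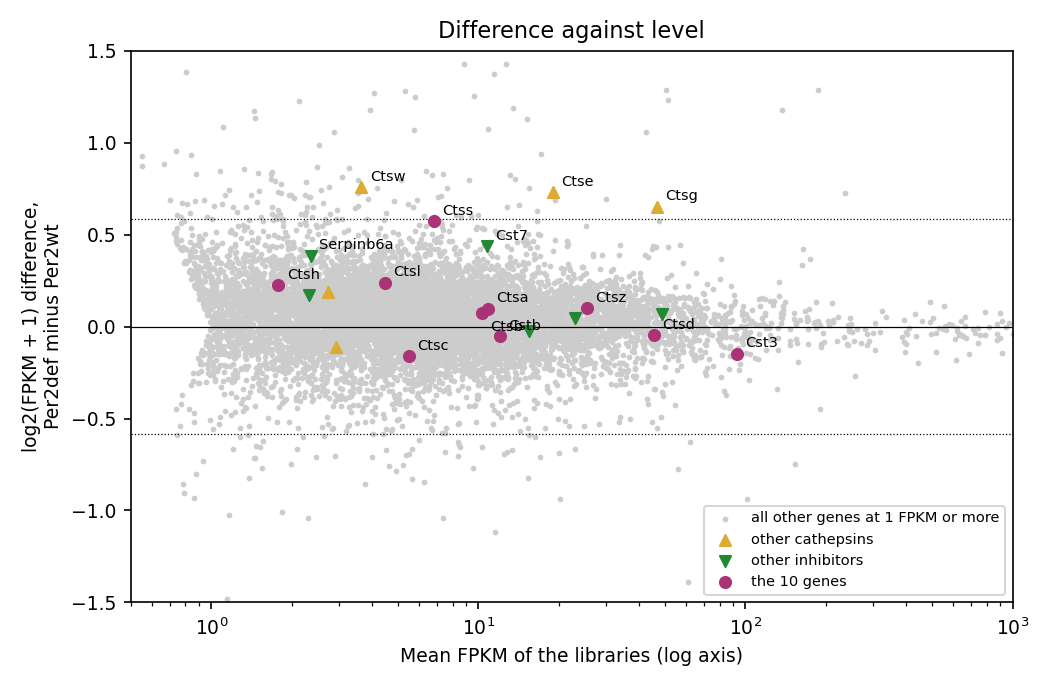
Difference on the log2(FPKM + 1) scale, Per2def minus Per2wt, against the mean FPKM of the libraries (log axis) for genes at 1 FPKM or more, small and predicted RNAs left out. Dotted lines mark 1.5-fold, and 40 of 10074 genes lie outside the axes. Ctss lies just under the upper line, Ctsw, Ctse and Ctsg lie above it, and the other 9 of the 10 genes lie within the bulk of the grey points.

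Summed by type, cysteine cathepsins and cystatins went opposite ways by small amounts. FPKM are set relative to length and can be added across genes. The 6 cysteine cathepsins summed to 51.3 and 57.5 FPKM, 1.12-fold higher, and both cystatins to 109.7 and 99.7 FPKM, a ratio of 0.909. Without Ctss the first sums were 46.0 and 49.1 FPKM. Cysteine cathepsin FPKM per cystatin FPKM was 0.468 in Per2wt and 0.577 in Per2def, a log2 ratio of 0.30 between the libraries. Leaving Ctss out of the sum, an alternative chosen after the values were seen, gave 0.23. The sum of all 10 was 217.7 and 213.3 FPKM (ratio 0.979). These are RNA levels and give no measure of protein or protease activity.

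**Figure D3:**
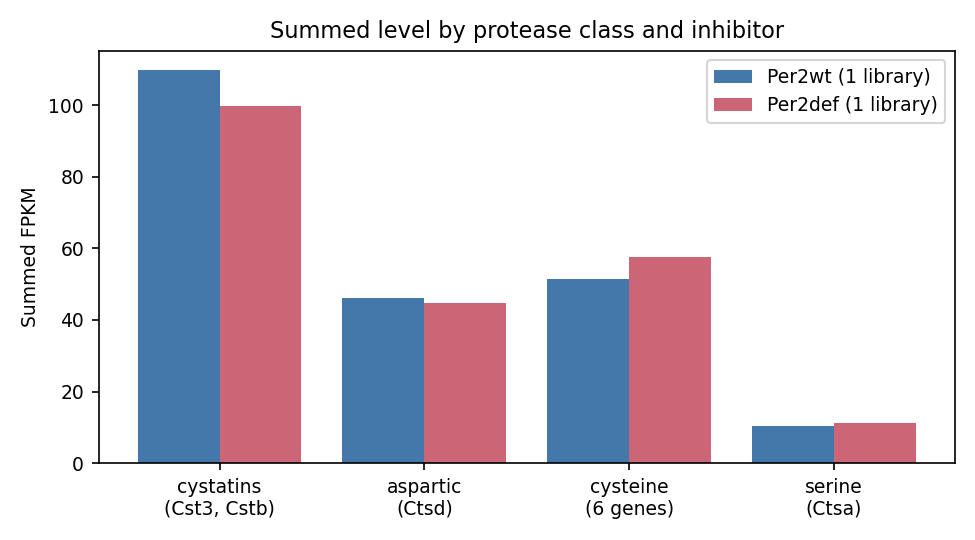
Summed FPKM of the cystatins, the aspartic cathepsin Ctsd, the 6 cysteine cathepsins and the serine cathepsin Ctsa in each library, 1 bar per library and no error bars because there are no replicates. The cystatin bar is lower and the cysteine cathepsin bar higher in the library labelled Per2def.

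Among cathepsins outside the 10, Ctsg, Ctse and Ctsw were higher in the library labelled Per2def. Of 15 searched, 5 reached 1 FPKM, 4 of them higher and 3 by at least 1.5-fold, where the background was 62.0% and 2.61%. Ctsg, the serine protease of primary neutrophil granules, was at 35.9 and 57.0 FPKM (log2 difference 0.65). Ctse, an aspartic cathepsin of endosomes, was at 14.02 and 24.0 FPKM (0.73), and Ctsw, a cysteine cathepsin of cytotoxic lymphocytes, at 2.46 and 4.84 FPKM (0.76). Ctsf was at 2.48 and 2.97 FPKM (0.19) and Ctso at 3.08 and 2.78 FPKM (−0.11). Ctsk, the osteoclast cathepsin, lies 17423 bases from Ctss on chromosome 3. It was at 0.0631 FPKM in Per2wt and listed at 0 in Per2def. Of the placental cathepsins, Cts8 was at 0.812 and 0.938 FPKM, and Cts3, Cts6, Cts7, Ctsj, Ctsm, Ctsq, Ctsr and Ctsll3 were listed at 0 in both. The placental genes are near copies of each other, so reads can be split among them.

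Other inhibitors of cathepsins were led by genes that differed little. Of 30 found in the files, 6 reached 1 FPKM, 5 of them higher in the library labelled Per2def (4 with median of ratios scaling) and none past 1.5-fold. Of all genes, 62.0% were higher (51.0% with that scaling). Ctla2a, which resembles a cathepsin propeptide and inhibits cathepsin L, was the most abundant, at 47.6 and 49.9 FPKM (0.07). Its near copy Ctla2b was at 15.6 and 15.4 FPKM, and the split of reads between them is uncertain. Serpinb1a, an inhibitor of granule serine proteases, was at 22.6 and 23.4 FPKM (0.04). The widest difference was in Cst7, which encodes cystatin F, the cystatin of immune cell lysosomes and an inhibitor of cathepsin C. It was at 9.02 and 12.6 FPKM (0.44). Serpinb6a, an inhibitor of cathepsin G, was at 1.91 and 2.80 FPKM (0.39), and Serpinb6b at 2.13 and 2.53 FPKM (0.17). A total of 19 inhibitor genes were listed at 0 in both libraries.

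Of 8 granule proteases that cathepsin C activates, 5 reached 1 FPKM. All 5 were higher in the library labelled Per2def, where 62.0% of all genes were, and Elane, Mcpt8 and Ctsg by at least 1.5-fold (background 2.61%). Prtn3 and Prss57 (0.25) did not pass 1.5-fold, Gzma was at 0.388 and 0.364 FPKM, Gzmb was also under 1 FPKM, and Cma1 was listed at 0 in both. Elane, neutrophil elastase, was at 27.1 and 57.5 FPKM (1.06), Mcpt8, a basophil protease, at 1.37 and 3.70 FPKM (0.99) and Prtn3, proteinase 3, at 48.2 and 65.9 FPKM (0.44). Ctsc, at 5.84 and 5.12 FPKM, was on the other side of 0. Markers of neutrophils moved with these proteases, with 14 of 15 members at 1 FPKM or more higher (12 with median of ratios scaling) and a summed level of 518.9 and 990.9 FPKM over all 17. Of the 15, 10 were at least 1.5-fold higher. The widest gaps in FPKM were those of S100a8 (108.8 and 266.5 FPKM) and S100a9 (83.6 and 190.6 FPKM). Csf3r (14.3 and 14.8 FPKM) and Cxcr2 (6.00 and 6.18 FPKM) were nearly level. Elane and Prtn3 are also on the neutrophil list. Its members Mmp8 and Mmp9 were under 1 FPKM in both libraries, and Retnlg was at 2.16 FPKM in Per2wt and listed at 0 in Per2def. The part of neutrophil precursors in these values was not tested. In bulk RNA, more cells of a type and more RNA per cell cannot be told apart.

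Class II molecules and the invariant chain, which cathepsin S cuts, went both ways. Of 9 at 1 FPKM or more, 6 were higher in the library labelled Per2def, 1 by at least 1.5-fold, and 3 lower, with a median of 0.32. The share higher, 66.7%, is close to the 62.0% of all genes, of which 2.61% passed 1.5-fold upward. Those shares of all genes are the background for the marker counts below too. Cd74, the invariant chain, was at 9.16 and 17.0 FPKM (0.83), a ratio of 1.86 beside 1.58 for Ctss. The class II chains H2-Eb1, at 1.84 and 3.13 FPKM (0.54), and H2-Aa, at 4.13 and 6.08 FPKM (0.47), were higher too. H2-DMa, a chain of the peptide-loading factor, was lower, at 25.2 and 19.0 FPKM (−0.39). Monocyte and macrophage markers summed to 70.7 and 88.9 FPKM over 16 genes. Of these 7 reached 1 FPKM and all 7 were higher, from 0.09 for Ccr2 to 1.08 for Ly6c2, which shares reads with its near copy Ly6c1. The macrophage genes Adgre1 (0.0573 and 0.138 FPKM), Mrc1, C1qa and C1qb were under 1 FPKM in both, and C1qc was listed at 0 in Per2wt. Dendritic markers summed to 95.1 and 98.7 FPKM, most of it Flt3 and Bst2. Of 5 at 1 FPKM or more, 4 were higher. Of these, 2 were at least 1.5-fold higher, Zbtb46 at 1.09 and 2.57 FPKM and Ly6d at 1.52 and 4.25 FPKM. Erythroid markers summed to 756.5 and 745.2 FPKM with members on both sides, such as Car1 at 177.3 and 293.7 FPKM and Hba-a1, whose reads are shared with its copy Hba-a2, at 193.0 and 114.5 FPKM. T and natural killer markers summed to 27.4 and 34.8 FPKM, most of it Nkg7. Of 4 at 1 FPKM or more, 3 were higher. Of these, Cd3g (0.266 and 1.41 FPKM) and Cd4 (0.542 and 1.07 FPKM) reached 1 FPKM only in Per2def, so the filter fixed their direction. Nkg7 was at 23.7 and 28.4 FPKM, and Cd8b1, the lower one, at 1.22 and 1.16 FPKM. Megakaryocyte markers summed to 59.7 and 49.6 FPKM, with 3 of 8 at 1 FPKM or more higher and 5 lower. B and plasma cell markers summed to 10.5 and 8.65 FPKM, with 2 at 1 FPKM or more, both lower. No list named here had a marker at 0 in both libraries, and the part of these cell types in the levels of Ctss, Ctsw and Cd74 was not tested.

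**Figure D4:**
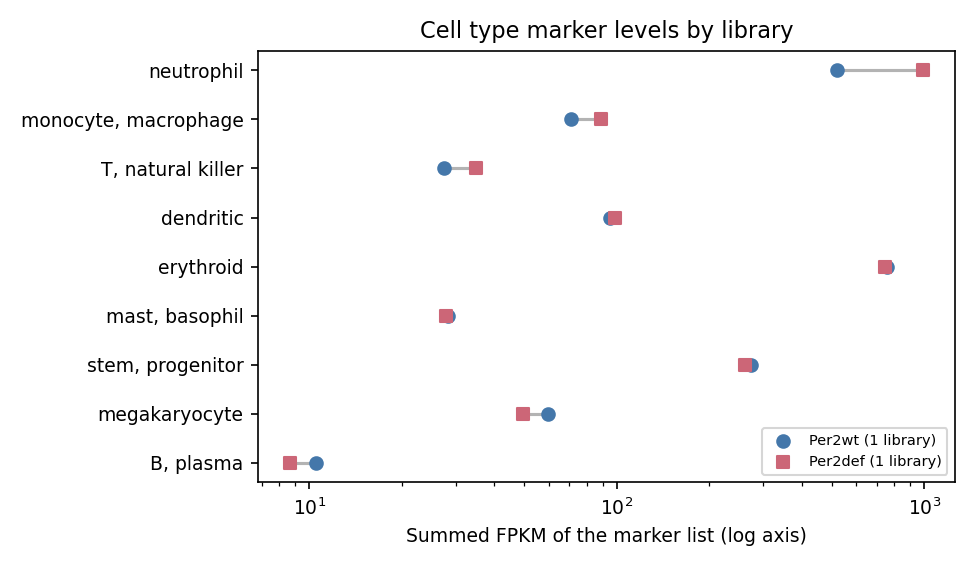
Summed FPKM (log axis) of 9 lists of cell type markers in the library labelled Per2wt (circles) and the library labelled Per2def (squares), 1 library each. The widest gap is in the neutrophil list (518.9 and 990.9 FPKM), and the dendritic, erythroid, mast cell and stem cell sums nearly coincide. Equal sums can hide members that differ, as in the erythroid list (2 members at least 1.5-fold higher and 4 lower). The dendritic sum is mostly Flt3 (48.8 and 51.4 FPKM) and Bst2 (40.2 and 36.5 FPKM). The mast cell sum is mostly Gata2 (22.5 and 18.6 FPKM). Flt3 and Gata2 are also on the stem cell list. In the dendritic list 2 members were at least 1.5-fold higher and 0 lower, and in the mast cell list 1 and 0.

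Genes that carry and process lysosomal proteases were mostly level. Of 15 at 1 FPKM or more, 9 lay above 0, higher in the library labelled Per2def, and 6 below, with a median of 0.06 and none past 1.5-fold on the log2(FPKM + 1) scale. The share higher, 60.0%, is close to the 62.0% of all genes. The mannose 6-phosphate receptor gene M6pr was at 38.3 and 40.4 FPKM (0.08). Psap, the precursor of the saposins that help lipid breakdown, was the most abundant, at 65.9 and 69.8 FPKM (0.08). Lgmn, the asparaginyl protease that trims several cathepsins to their 2-chain form, was low, at 0.600 and 1.197 FPKM, a plain ratio of 2.00 (0.46 on that scale). It reached 1 FPKM only in Per2def, so the filter fixed its direction. Gga2, a sorting adaptor, was at 5.73 and 7.29 FPKM (0.30), and Nagpa, which uncovers the mannose 6-phosphate tag, at 4.76 and 3.83 FPKM (−0.25). Neu1, the neuraminidase that cathepsin A protects, was at 1.804 and 2.27 FPKM (0.22).

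Other lysosomal enzymes differed little as a group, with a few lipid and sugar enzymes apart. All 38 reached 1 FPKM, 25 of them (65.8%) higher and 13 lower, with a median of 0.05 and none past 1.5-fold on the log2(FPKM + 1) scale, and the share higher is close to the 62.0% of all genes. Scaling by the median of ratios gave 19 higher and 19 lower. Manba, beta-mannosidase, was at 5.81 and 3.59 FPKM (−0.57, a plain ratio of 1.62) and Asah1, acid ceramidase, at 6.08 and 4.01 FPKM (−0.50, a plain ratio of 1.52). Ctbs, a chitobiase, was at 0.575 and 1.08 FPKM (0.40, a plain ratio of 1.89) and Galns, a sulfatase, at 3.21 and 4.15 FPKM (0.29). Ctbs and Acp5 (0.688 and 1.04 FPKM) reached 1 FPKM only in Per2def, so the filter fixed their direction. The most abundant were Gusb, beta-glucuronidase, at 17.9 and 19.5 FPKM (0.12), and the cholesterol carrier Npc2 at 14.7 and 15.2 FPKM (0.04).

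Lysosomal membrane genes went both ways, and 1 of them passed 1.5-fold. Of 17 at 1 FPKM or more, 9 were higher and 8 lower in the library labelled Per2def (median 0.01), and with median of ratios scaling 7 and 10 (median −0.04). The shares higher were 52.9% and 41.2%, where those of all genes were 62.0% and 51.0%. Npc1, the membrane cholesterol exporter that works with Npc2, was at 5.46 and 3.31 FPKM (−0.59). Background for that direction was 1.7%. Cd63, a tetraspanin of late endosomes, was at 49.7 and 36.8 FPKM (−0.42), and Scarb2, the receptor that carries glucocerebrosidase, at 7.26 and 9.29 FPKM (0.32). Laptm5, a lysosomal membrane protein of blood cells, was the most abundant, at 109.6 and 98.6 FPKM (−0.15).

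Subunits of the proton pump that acidifies lysosomes had a median of −0.04, with 7 of 16 higher and 9 lower and none past 1.5-fold. The share higher was 43.8%, below the 62.0% of all genes. Atp6v0c was at 41.5 and 35.3 FPKM (−0.23), Atp6v0d1 at 14.5 and 12.3 FPKM (−0.21), Atp6v0a1 at 2.68 and 3.52 FPKM (0.30) and Atp6v1c1 at 6.74 and 7.90 FPKM (0.20). Atp6v1f was the most abundant, at 57.6 and 52.5 FPKM (−0.13). Regulators of lysosomal genes differed by still less, with 5 of 9 higher (55.6%, where 62.0% of all genes were) and a range from −0.18 to 0.16. Tfeb, whose protein binds GTCACGTG, was at 2.54 and 2.13 FPKM (−0.18), and Tfec, a relative, at 2.54 and 2.96 FPKM (0.16). Flcn was at 7.13 and 8.06 FPKM (0.16), Rragc at 7.21 and 8.06 FPKM (0.14) and Rraga at 9.78 and 9.69 FPKM (−0.01), all of them in the nutrient-sensing arm that controls TFEB.

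**Figure D5:**
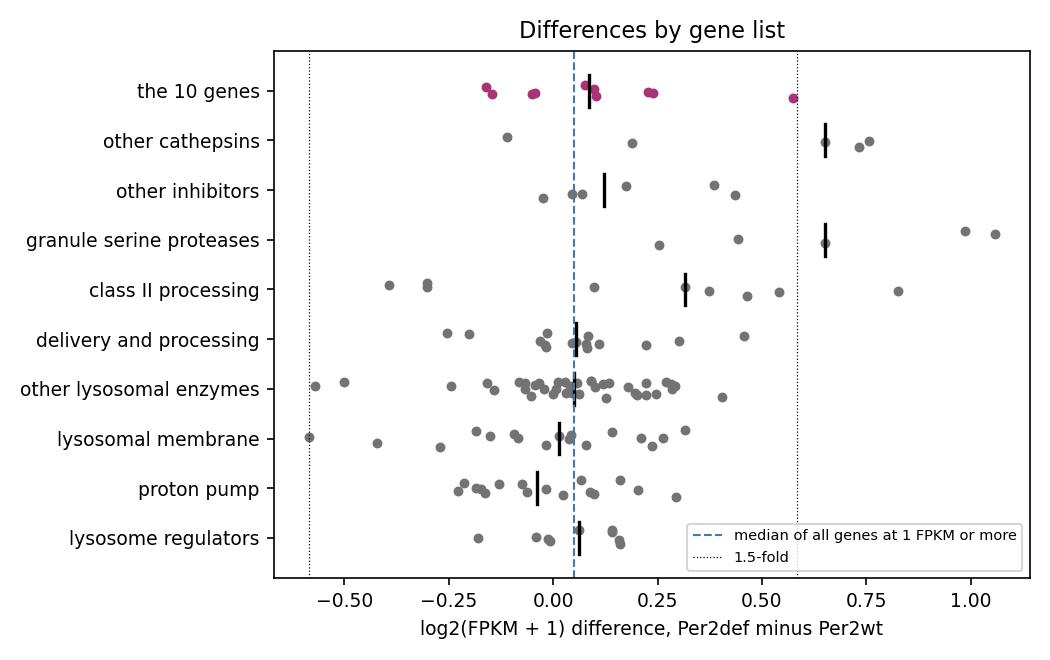
Difference of each gene at 1 FPKM or more on the log2(FPKM + 1) scale, Per2def minus Per2wt, by gene list, with the list median as a black bar. The dashed line is the median of all genes (0.05) and dotted lines mark 1.5-fold. The 10 genes and the lysosomal lists centre near the dashed line. The class II list has a median of 0.32, with 6 genes higher and 3 lower. The other cathepsins and the granule proteases have medians of 0.65, in both cases the value of Ctsg, which both lists hold.

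Reads of overlapping genes could bear on some of these values, and whether they did was not measured. In GENCODE M21, 5 of the 10 genes share exon sequence with another gene, and the strand setting of the authors' counting is not given, so such reads cannot be told apart. Ctsz overlaps Nelfcd, on the opposite strand, which was at 10.8 and 10.6 FPKM. Ctsb overlaps Fdft1 (2.19 and 2.12 FPKM), and Ctsa overlaps Neurl2 (1.34 and 1.55 FPKM) and Pltp (0.190 and 0.306 FPKM), all on the opposite strand. Ctsd and Ctsl overlap predicted genes that are not used here. Ctss, Ctsc, Ctsh, Cst3 and Cstb overlap no other gene's exons.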

How the data were processed

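The authors deposited FPKM per gene for 1 library per genotype, made with Cufflinks according to the submitters' processing notes and, per the file headers, with a status per gene. The notes also name CASAVA 1.8, TopHat and Bowtie2 and the builds GRCm38 and mm10. Per the labels' protocols, libraries were made from poly(A) RNA with a kit that marks strand. The sources used here name no annotation, strand setting or read filter. FPKM are relative to each library's total, so very abundant rows move all others.

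Of 24487 rows per file, 9 marked as having too much data and 27 with symbols turned into dates were left out. Rows sharing a symbol were summed. Differences are log2(FPKM + 1), Per2def minus Per2wt, computed with Python 3.11.15 and pandas 2.3.3. Counts took genes that reached 1 FPKM in a library, with a 1.5-fold threshold. Genes of like level are those with a mean FPKM within 2-fold. Small and predicted RNAs were recognised by symbol alone. Older symbols were matched through RefSeq.

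The 10 genes and the gene lists were chosen with earlier results of these data known. By the naming rule, all 10 genes, up to 4 of the widest difference and 2 of the highest mean of each pathway list, the summed marker lists, Per2 and the 3 nearest genes are named. Values of 1 further gene under this rule are left out here. Ctso, Ctsk, the placental cathepsins, Ctla2b, Acp5, Prss57, Gzma, Gzmb and Cma1 fall outside it or were named after their values were seen. The same holds for the overlapping genes and the marker genes named, and the motifs searched were chosen after the values were seen. Calculations were tested on simulated data. Alternatives were other scalings, pseudocounts, floors, thresholds, the mean, and the highest row per symbol.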

Additional observations from a re-analysis of the deposited data

How the results depend on the processing

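Each of the 10 genes kept its direction under all 6 alternatives of scaling, pseudocount and row choice, with Ctss between 0.53 and 0.65, and 6 of the 10 stayed higher in the library labelled Per2def. The count of the 10 at least 1.5-fold higher went from 0 to 1 (Ctss) with a pseudocount of 0.1 or 0.5 FPKM or a threshold of 0.32 on the log2 scale, and stayed at 0 for lower genes in all 8 alternatives. The median of the 10 ran from 0.04 to 0.09, and the log2 ratio of cysteine cathepsins per cystatin, in which any scaling of a library cancels, was 0.30 (0.23 without Ctss). Over all genes, 290 passed 1.5-fold upward and 189 downward. The higher count was 524 with a pseudocount of 0.1 FPKM, 192 with a floor of 5 FPKM, 129 without small and predicted RNAs, 912 at the threshold of 0.32 and 139 at 2-fold. The lower count was 73 without small and predicted RNAs, 487 at the threshold of 0.32 and 111 at 2-fold. Thresholds, floors and the class left out change these counts by construction, and the pseudocount acts on low values. Single values were called moved past 0.1 on the log2 scale, which was so for Ctsh alone (0.34 with a pseudocount of 0.1 FPKM). No paired analysis was possible because each genotype has 1 library. Depth is unknown, so the counting error of low genes such as Ctsh cannot be given.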
